A study of Ovis aries with 12 samples.

Results

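Collagens, laminins and integrins were followed across skeletal muscle of young callipyge and normal lambs. Members were taken by gene symbol alone: COL, a number, A and a number; LAMA, LAMB or LAMC with a digit; and symbols that begin with ITGA or ITGB and a digit. The rule took 89 probe sets of 45 genes, out of 9155 genes with a single symbol in the array's annotation, and each gene was read from its brightest probe set. It also took ITGB1BP1, ITGB1BP2 and ITGB3BP, which are not integrins and are named for binding an integrin β chain. The longissimus dorsi, a back muscle, was taken from callipyge lambs, labelled +/CLPG, and from normal lambs, labelled as wild type (+/+), at 10, 20 and 30 days of age. Each of the 6 groups held 2 lambs, so there were 6 callipyge and 6 normal lambs, and all lambs nursed until shortly before tissue collection. The study asked how gene expression differs at the onset of the muscle hypertrophy of callipyge lambs. RNA of each lamb went onto 1 array made for cattle, so sequence differences between sheep and cattle can dim a probe set, and levels of different genes are not compared with each other.

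A muscle fibre is wrapped in a basement membrane, a sheet woven from type IV collagen and laminins, and the space between fibres is filled with fibrils of types I, III and V collagen made mostly by fibroblasts. Integrins are receptors of one α and one β chain in the plasma membrane that grip laminins, collagens and fibronectin outside the cell and link them to the cytoskeleton inside. In muscle the α7β1 integrin is a main laminin receptor of the fibre, and melusin, the product of ITGB1BP2, is a muscle protein that binds the β1 chain.

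Values are given as log2 of the scaled intensity plus 16, where the constant damps noise in dim probe sets and makes folds of dim genes too small. Of the 45 genes, 30 had a mean at or above 5.25, the median of all probe sets, and were tested. The other 15 were below it, with means between 4.21 and 5.20, and their low signal does not show that the genes are off. These were the collagens COL4A3, COL4A4, COL9A1, COL10A1, COL11A2, COL13A1 and COL18A1, the laminin LAMB3, the integrins ITGA2, ITGA2B, ITGA4, ITGA10, ITGB4 and ITGB7, and ITGB3BP. Tested members included 8 of 9 fibrillar collagens, 2 of 5 basement membrane collagens, both collagen VI genes, 2 of 3 fibril-associated collagens, 2 of 4 other collagens, 4 of 5 laminins, 3 of 7 integrin α genes and 5 of 7 integrin β genes.

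**Figure D1:**
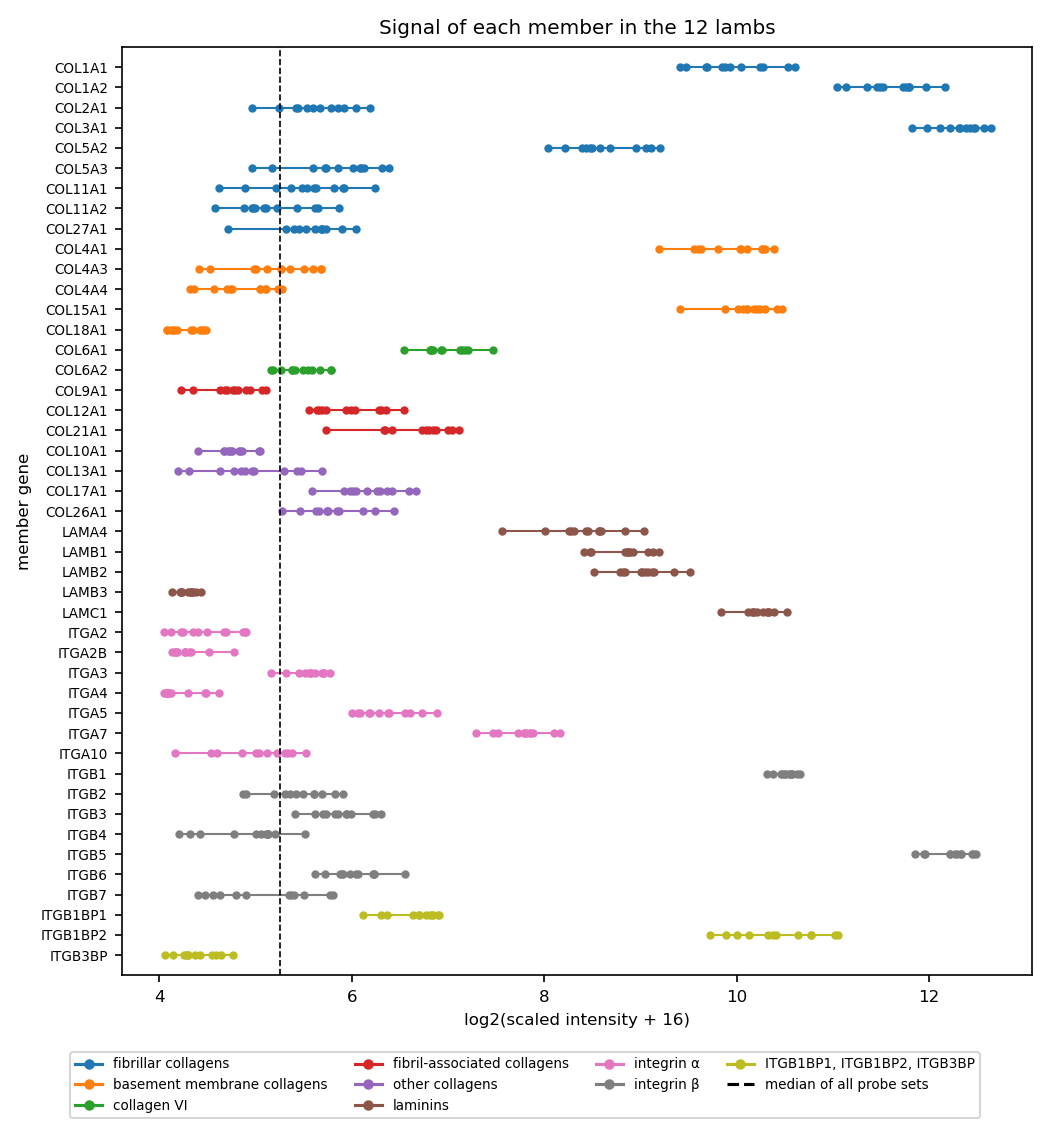
Level of each of the 45 genes in every lamb, as log2(scaled intensity + 16) on the horizontal axis, with 1 point per lamb, a line from the lowest to the highest lamb and colours for the roles. The dashed line marks 5.25, the median of all probe sets, and 15 genes have means below it.

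The arrays' trimmed mean intensities ran from 55.7 to 105.7, and each array was scaled to 79.2. Correlations between the 2 lambs of a group ran from 0.962 to 0.970 over all probe sets. The skeletal muscle fibre markers, such as ACTA1 and CKM, summed to log2 levels between 15.8 and 16.2 in all lambs, and all 9 on the array were tested. Of the satellite cell markers, 1 was on the array and was not bright enough to be tested. No probe set was called for a genotype-by-age interaction, and no member passed the test in any of the 8 comparisons made with limma, at a Benjamini-Hochberg adjusted p of 0.05 over 12008 probe sets.

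Averaged over the 3 ages, 0 of 30 members were called between callipyge and normal lambs, where 0.883% of all probe sets were. Before adjustment, 2 members had a p under 0.05 (6.67%), against 11.8% of all probe sets. The members' median difference, callipyge minus normal, was -0.024, beside -0.011 for all probe sets, and 14 members stood above 0 and 16 below. Without the second callipyge lamb of 30 days the members' median was 0.070, beside -0.0029 for all probe sets. Without the second callipyge lamb of 10 days it was 0.0087, beside -0.0076, so its sign is not settled. The 95% interval of every tested member lay within 1 log2 unit of 0, with bounds from -0.70 to 0.91. Because of the added constant, that unit is a 2-fold difference for bright genes and a larger one for dim genes. Whether fewer cells of a type or less RNA per cell underlie a lower value cannot be told apart in RNA of whole muscle.

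**Figure D2:**
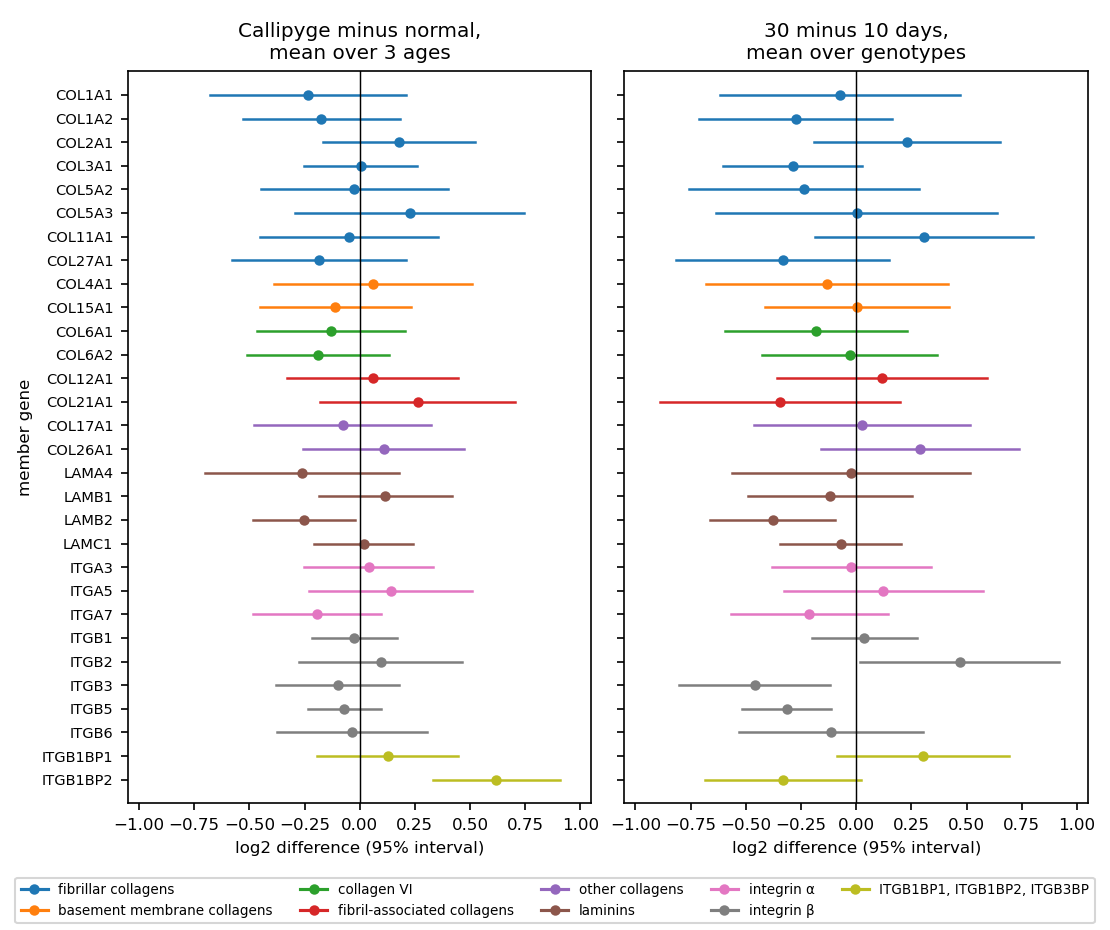
Log2 difference of each of the 30 tested members with its 95% interval from limma, callipyge minus normal averaged over 3 ages (left) and 30 minus 10 days averaged over genotypes (right), coloured by role. ITGB1BP2 stands at 0.62 on the left with an interval of 0.33 to 0.91, and every interval lies within 1 log2 unit of 0.

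Among the members' brightest probe sets, the widest gap between genotypes averaged over ages was that of ITGB1BP2. Its callipyge lambs read 11.02 and 10.38 at 10 days, 10.77 and 11.05 at 20 days, and 10.41 and 10.77 at 30 days. Its normal lambs read 10.64 and 10.32 at 10 days, 10.00 and 9.88 at 20 days, and 10.13 and 9.72 at 30 days. Both callipyge lambs stood above both normal lambs at 20 and at 30 days, and at 10 days 1 of 2 did, so 5 of 6 callipyge lambs exceeded both normal lambs of their age. Callipyge lambs averaged 10.73 ± 0.29 (SD, n = 6) and normal lambs 10.12 ± 0.33 (SD, n = 6). The difference averaged over ages was 0.62 ± 0.13 (SE), or 1.54-fold, which missed the threshold narrowly (limma adjusted p = 0.0515). An exact permutation of genotype within age, two-sided, gave p = 0.0185, and the smallest it can give is 0.00926. Exact permutation p-values here and below were not adjusted for the number of members or comparisons. A second probe set of ITGB1BP2 read 0.72 (limma adjusted p = 0.110). Over 22 other settings the difference stayed between 0.40 and 0.73, and its limma adjusted p lay between 0.0298 and 0.330 and passed 0.05 in 5 of them. ITGB1BP1, which encodes a cytoplasmic partner of the β1 tail, stood 0.13 higher in callipyge lambs (interval -0.19 to 0.45).

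Among the receptors, ITGA7, the α chain of the muscle laminin receptor, read 7.85 and 7.85 in callipyge lambs of 10 days, 7.47 and 7.80 at 20 days and 7.78 and 7.29 at 30 days. Normal lambs read 7.88 and 8.16, 7.81 and 7.52, and 8.10 and 7.72. Genotypes overlapped at 20 and at 30 days, and the averaged difference was -0.19 (interval -0.48 to 0.10, limma adjusted p = 0.640). Its other tested probe sets read 0.080 and -0.012. ITGB1, the β chain shared by ITGA7, ITGA5 and ITGA3, had values from 10.32 to 10.66 in all 12 lambs and a genotype difference of -0.025 (interval -0.22 to 0.17). ITGA5, of the fibronectin receptor, differed by 0.14 (interval -0.23 to 0.51), and ITGA3, of a laminin receptor, by 0.040 (interval -0.25 to 0.33). The other β chains ran from -0.099 for ITGB3 to 0.096 for ITGB2, with ITGB5 at -0.069 (interval -0.23 to 0.10) and ITGB6 at -0.035.

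Among the laminins, LAMB2, the β2 chain enriched at the neuromuscular junction, read 9.12 and 9.01 in callipyge lambs of 10 days, 9.05 and 8.84 at 20 days and 8.82 and 8.52 at 30 days. Normal lambs read 9.51 and 9.35, 8.79 and 9.08, and 9.14 and 9.01. Both callipyge lambs lay below both normal lambs at 10 and at 30 days, and the genotypes overlapped at 20 days. The averaged difference was -0.25 ± 0.11 (SE), with an interval of -0.48 to -0.02 (limma adjusted p = 0.363; exact permutation p = 0.0556). LAMA4, the α4 chain of vessel and nerve basement membranes, differed by -0.26 (interval -0.70 to 0.18), and by -0.050 without the second callipyge lamb of 30 days. LAMB1 differed by 0.12 and LAMC1, the γ1 chain of most laminins, by 0.018 (interval -0.21 to 0.24). The other 5 tested probe sets of LAMC1 ran from -0.32 to 0.11.

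**Figure D3:**
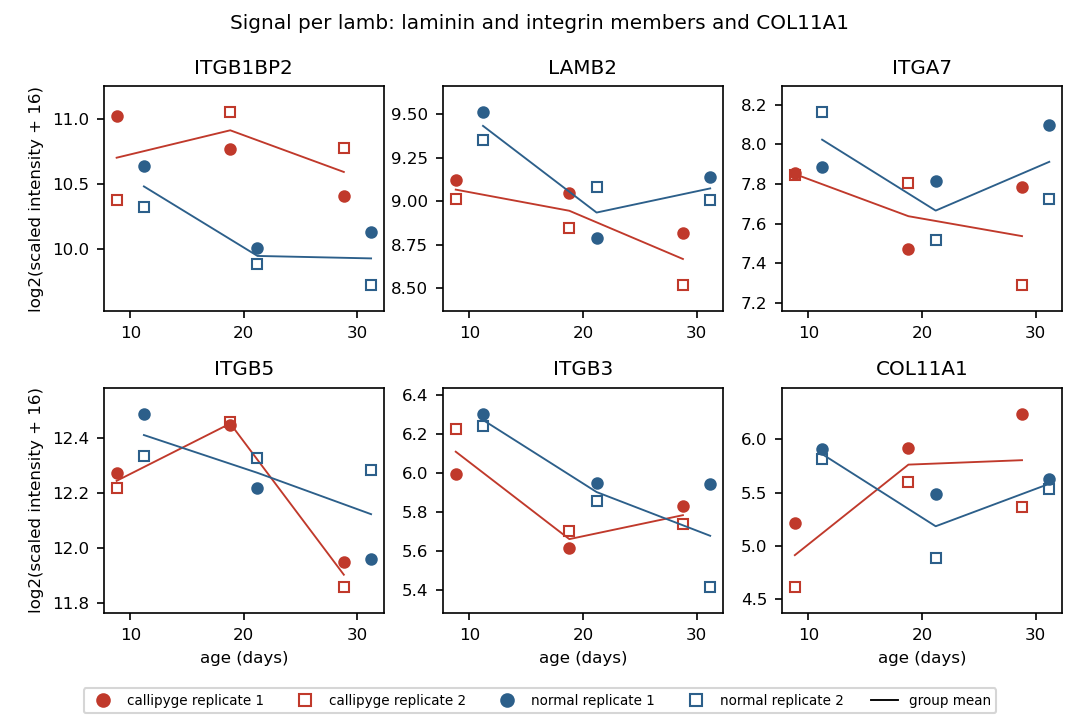
Log2(scaled intensity + 16) of 6 members in every lamb against age in days, callipyge in red and normal in blue, filled circles for replicate 1 and open squares for replicate 2, with lines through the group means and genotypes shifted sideways to keep points apart. ITGB1BP2 is higher in callipyge lambs at 20 and 30 days, and ITGB3 is higher in all 4 lambs of 10 days than in the lambs of 20 and 30 days.

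Collagen I, the main fibril of muscle connective tissue, is built from COL1A1 and COL1A2. COL1A1 differed by -0.23 between genotypes (interval -0.68 to 0.21) and COL1A2 by -0.17 (interval -0.53 to 0.18). A dimmer probe set of COL1A1, with a mean of 5.56, read -0.78 (limma adjusted p = 0.194), so the size for this gene depends on the probe set. A second probe set of COL1A2 read -0.17. COL3A1, the single chain of collagen III, had a mean of 12.31 in both genotypes (SD 0.17 in callipyge and 0.31 in normal lambs, n = 6 each) and a difference of 0.0057 (interval -0.25 to 0.26). The other fibrillar genes ranged from -0.19 for COL27A1 to 0.23 for COL5A3, and the median of the 8 was -0.037. Their summed level overlapped between genotypes, at 12.83 to 13.40 in callipyge and 12.74 to 13.68 in normal lambs.

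In the basement membrane, COL4A1, the α1 chain of collagen IV, differed by 0.058 (interval -0.39 to 0.51) and COL15A1, which anchors that sheet to the fibrils, by -0.11 (interval -0.45 to 0.23). Collagen VI forms a beaded network around the fibre, and its tested chains differed by -0.13 (COL6A1) and -0.19 (COL6A2). COL6A2 was lower than both normal lambs of the same age in 5 of 6 callipyge lambs, with an interval of -0.51 to 0.13. The fibril-associated COL21A1 stood at 0.26 (interval -0.18 to 0.71), and at 0.030 without the second normal lamb of 30 days, and COL12A1 at 0.058. COL17A1, an epithelial transmembrane collagen, differed by -0.076 and COL26A1 by 0.11.

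At single ages, 2 lambs against 2, the counts of called members were again 0 of 30. All probe sets were called at 0.0666% at 10 days, 0.0333% at 20 days and 0.050% at 30 days. With limma, unadjusted p values under 0.05 were reached by 2, 1 and 2 members at 10, 20 and 30 days (6.67%, 3.33% and 6.67%), against 8.82%, 6.15% and 7.60% of all probe sets. The intervals of 25, 26 and 25 members lay within 1 log2 unit of 0, and those of the rest did not.

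At 10 days COL11A1, a minor chain that sets the width of fibrils, stood lowest relative to normal. Its callipyge lambs read 5.21 and 4.62 at 10 days, 5.92 and 5.60 at 20 days and 6.24 and 5.37 at 30 days, while normal lambs read 5.91 and 5.82, 5.49 and 4.89, and 5.63 and 5.54. Callipyge lambs lay below normal at 10 days, above at 20 days, and on either side at 30 days. The difference at 10 days was -0.95 ± 0.32 (SE; interval -1.64 to -0.25; limma adjusted p = 0.391) and at 20 days 0.58 (interval -0.12 to 1.27). Its 2 other tested probe sets read -0.40 and 0.42 at 10 days. The 2 tested tendon markers, FMOD and THBS4, stood at -0.86 and -0.74 at that age, neither called, and their part in the COL11A1 value was not tested. COL2A1, the cartilage fibril chain, read 5.86 and 5.59 in callipyge and 4.96 and 5.25 in normal lambs of 10 days, a difference of 0.62 (interval 0.02 to 1.22; limma adjusted p = 0.546), where its other tested probe sets read -0.068 and -0.077.

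The remaining members with the smallest p at 10 days were COL21A1 (0.38), COL26A1 (0.32), LAMB2 (-0.37) and COL12A1 (-0.42), all with intervals that held 0. The COL12A1 value turned to 0.035 without the first normal lamb of 10 days. At 20 days ITGB1BP2 stood at 0.97 (interval 0.47 to 1.47; limma adjusted p = 0.353), followed by COL11A1 and LAMB1 (0.47, interval -0.05 to 1.00). On the lower side at 20 days were ITGB3 (-0.24), COL2A1 (-0.26) and COL6A2 (-0.22). At 30 days ITGB1BP2 stood at 0.67 (interval 0.17 to 1.16; limma adjusted p = 0.544), and LAMB2 at -0.41 (interval -0.81 to -0.01; limma adjusted p = 0.650). ITGA7 stood at -0.38, ITGB5 at -0.22, COL12A1 at 0.33 and COL5A3 at 0.41 at 30 days, again with intervals that held 0. COL5A3, a fibrillar chain, stood at -0.31 without the second normal lamb of 30 days.

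Whether the genotype difference depended on age was tested with limma's F test on all probe sets, which called 0% of them and 0 members. One member had an unadjusted p under 0.05 (3.33%), against 4.75% of all probe sets, and this was COL11A1, whose difference at 30 days exceeded that at 10 days by 1.17 ± 0.46 (SE; limma adjusted p = 0.992). For ITGB1BP2 the same contrast was 0.44 ± 0.33 (SE) and for ITGB5 -0.054 ± 0.19 (SE).

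Between 10 and 30 days, averaged over genotypes, 0 of 30 members were called, where 1.83% of all probe sets were. Unadjusted p values under 0.05 from limma were found for 4 members (13.3%), against 16.4% of all probe sets. The members' median was -0.073 beside 0.0023 for all probe sets, with 11 members above 0 and 19 below. Without the second lambs of both 30 day groups that median was 0.11, beside 0.015 for all probe sets. With median centring it was 0.0146, beside 0.083, so its sign is not settled. Every interval lay within 1 log2 unit of 0, from -0.89 to 0.92.

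Integrin β genes held 3 of the 4 smallest p values. ITGB5, which pairs with αv to bind vitronectin, read 12.27 and 12.22 in callipyge and 12.49 and 12.33 in normal lambs of 10 days. It read 12.45 and 12.46, and 12.22 and 12.33, at 20 days, and 11.95 and 11.86, and 11.96 and 12.28, at 30 days. At 30 days 3 of 4 lambs lay below all younger lambs, and 1 normal lamb did not. The change was -0.31 ± 0.09 (SE; interval -0.52 to -0.11; limma adjusted p = 0.111; exact permutation of age within genotype, p = 0.0343). A dimmer probe set of ITGB5 stood at 0.64 with the opposite sign (limma adjusted p = 0.0694), so the direction for this gene depends on the probe set.

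ITGB3, which pairs with αv or, in platelets, αIIb, read 5.99 and 6.22 in callipyge and 6.30 and 6.24 in normal lambs of 10 days, against 5.62 and 5.70, and 5.95 and 5.85, at 20 days. At 30 days it read 5.83 and 5.74, and 5.94 and 5.41. All 4 lambs of 10 days lay above all lambs of 20 and of 30 days. The change to 30 days was -0.46 ± 0.16 (SE; interval -0.80 to -0.12; limma adjusted p = 0.166), and the unadjusted two-sided exact permutation p over 8100 relabelings was 0.00716. ITGB2, a leukocyte chain, ran from 4.87 to 5.50 at 10 days and from 5.42 to 5.69 at 30 days, a change of 0.47 (interval 0.02 to 0.92; limma adjusted p = 0.286; exact permutation p = 0.0469). It is itself among the immune markers, of which 6 were tested and 5 lay above 0, with a median of 0.33 and none called; their part in the ITGB2 value was not tested. ITGB1 stood at 0.038 (interval -0.20 to 0.27), ITGA7 at -0.21 and ITGA5 at 0.12.

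LAMB2 averaged 9.25 ± 0.23 (SD, n = 4) at 10 days and 8.87 ± 0.27 (SD, n = 4) at 30 days, a change of -0.38 ± 0.13 (SE; interval -0.66 to -0.10; limma adjusted p = 0.167; exact permutation p = 0.0148). All 4 tested laminins lay below 0, from -0.38 to -0.025, with LAMC1 at -0.070, where 50.4% of all probe sets lay above 0. The intervals of the laminins other than LAMB2 held 0. Other tested probe sets of LAMC1 ran from -0.20 to 0.23. Among collagens, COL3A1 stood at -0.29 (interval -0.60 to 0.03), COL1A2 at -0.27, COL4A1 at -0.13, COL15A1 at 0.0031, COL6A1 at -0.18 and COL6A2 at -0.030. COL21A1 stood at -0.34, COL12A1 at 0.12, COL17A1 at 0.026 and COL26A1 at 0.29 (interval -0.16 to 0.74). COL3A1 reached -0.48 (limma adjusted p = 0.0488) without the first normal lamb of 30 days, and 0.0021 without the second lambs of both 30 day groups. ITGB1BP1 stood at 0.30 (interval -0.09 to 0.69) and ITGB1BP2 at -0.33 (interval -0.68 to 0.02).

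From 10 to 20 days 0 of 30 members and 0% of all probe sets were called with limma, and 4 members (13.3%) against 8.42% of all probe sets had an unadjusted p under 0.05. ITGB3 stood at -0.41 (interval -0.75 to -0.07), LAMB2 at -0.31 and ITGA7 at -0.29, and ITGB2 at 0.48, COL2A1 at 0.44 and COL26A1 at 0.33. COL2A1 had group means of 5.72 and 5.73 in callipyge lambs of 10 and 20 days, and of 5.10 and 5.99 in normal lambs. Its other tested probe sets read -0.011 and -0.099 from 10 to 20 days. From 20 to 30 days 0 of 30 members were called, where 0.00833% of all probe sets were, and 1 member (3.33%) against 8.99% had an unadjusted p under 0.05. This was ITGB5, at -0.35 (interval -0.55 to -0.15; limma adjusted p = 0.211). LAMC1 stood at -0.19 and COL2A1 at -0.21, and ITGA3 at 0.18, COL11A1 at 0.22 and ITGB1BP1 at 0.16.

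Overlap between lambs was also counted over all probe sets. In 0 of 30 members did callipyge lambs stand on one side of the normal lambs at each age and in 1 direction, which 3.31% of all probe sets did. The 4 lambs of 10 days stood apart from those of 30 days in 1 member, ITGB3, where 7.84% of probe sets did so. The lambs of 10 and 20 days did not overlap in 2 members, ITGB3 and ITGA7, against 4.76% of probe sets. The lambs of 20 and 30 days overlapped in all members, while 4.97% of probe sets did not overlap. ITGA7 ran from 7.85 to 8.16 at 10 days and from 7.47 to 7.81 at 20 days.

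The spread between lambs of a group was described without a test. The median SD within groups was 0.30 for the 30 members, from 0.11 to 0.54, and 0.24 for all probe sets. Of the 30 members, 11 had their lowest value in the second callipyge lamb of 30 days and 6 in the second normal lamb of 30 days. Over all tested probe sets these 2 arrays had the lowest mean correlations with the other arrays, 0.953 and 0.951. The share of all probe sets lowest in these lambs was not counted, so whether the counts are particular to the members was not tested. Normal lambs held the highest values of 8 members (the first of 10 days) and 6 members (the first of 30 days).

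**Figure D4:**
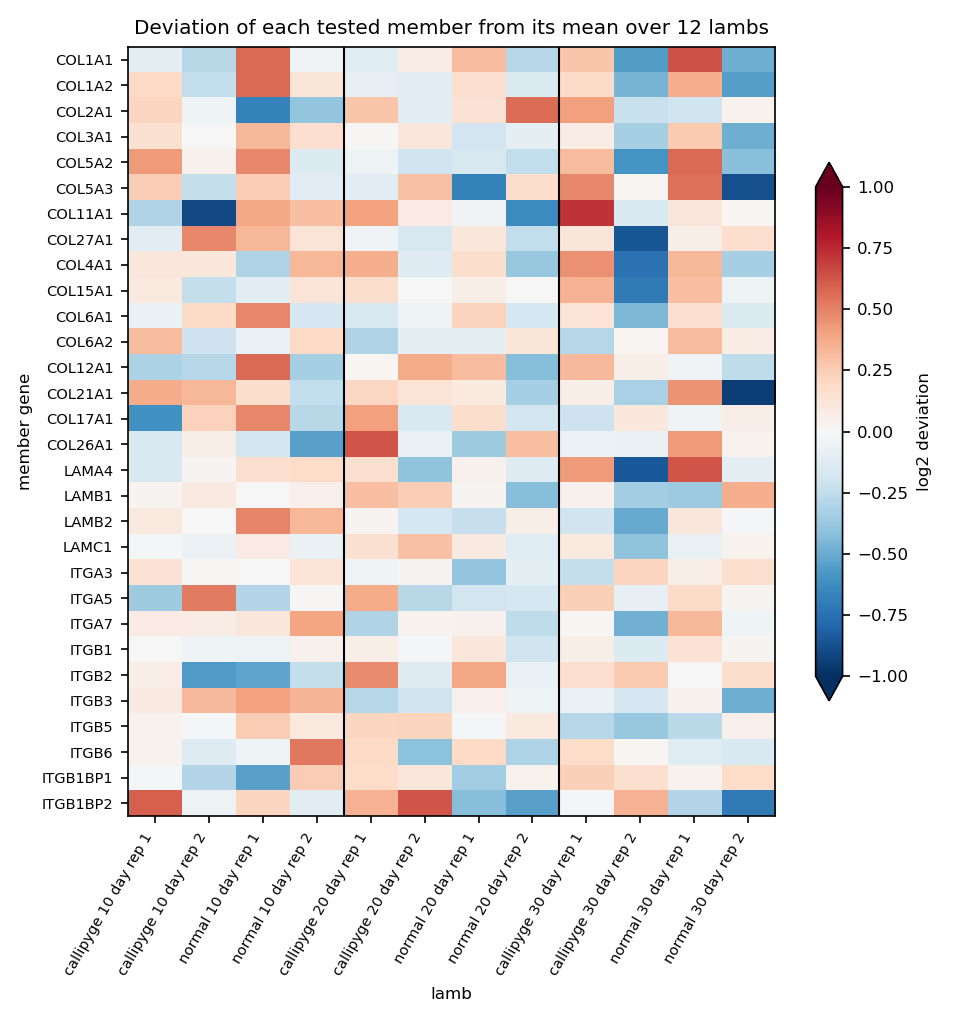
Deviation of each tested member (vertical axis) from its mean over 12 lambs (horizontal axis, ordered by age), in log2 units on a colour scale from -1 to 1 that none of the 360 values leaves. The second callipyge lamb of 30 days is lowest for 11 members.

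Gaps between the 2 lambs of a group were found at each age. The first-numbered lamb was higher in 17 to 25 of the 30 members in each of the 6 groups, beside 49.6% to 53.3% of all probe sets. The labels do not say whether the numbers carry an order. At 10 days the first-numbered lamb was higher in 7 of 8 fibrillar collagens in both genotypes, with median gaps of 0.32 (callipyge) and 0.29 (normal). At 20 days it was higher in 5 of 8 in both genotypes, with median gaps of 0.079 (callipyge) and 0.19 (normal). Whether the gaps differ between ages was not tested. At 30 days COL1A1 read 10.24 and 9.41 in the callipyge lambs of 30 days and 10.61 and 9.47 in the normal lambs. COL5A2, a collagen V chain, read 8.95 and 8.04, and 9.20 and 8.22. COL3A1 read 12.38 and 11.97, and 12.57 and 11.82. In both genotypes the first lamb of 30 days was thus above the second for each of these genes, by up to 1.13 log2 units.

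Over the 8 fibrillar genes the first callipyge lamb of 30 days was higher in 8, with a median gap of 0.75, and the first normal lamb in 6, with a median gap of 0.84. Over all 30 members the first lamb was higher in 25 (callipyge, median 0.39) and 21 (normal, median 0.23), beside 53.3% and 49.7% of all probe sets with medians of 0.035 and -0.0045. Lists of related genes, described below, were read for the same lambs. Of 32 fibril and interstitial matrix partners, 26 (callipyge, median 0.39) and 24 (normal, median 0.34) were higher in the first lamb. Of 21 collagen biosynthesis and crosslinking genes, 14 (median 0.16) and 19 (median 0.44) were. Of 23 integrin adhesion genes, 15 (median 0.12) and 10 (median -0.013) were. In the basement membrane, COL4A1 read 10.39 and 9.19 in callipyge and 10.26 and 9.60 in normal lambs of 30 days, and LAMA4 read 8.84 and 7.56, and 9.04 and 8.31. The laminins did not all follow: the first lamb of 30 days was higher in 4 of 4 callipyge (median gap 0.44) and 2 of 4 normal comparisons (median 0.0076), and LAMB1 read 8.47 and 9.20 in the normal lambs.

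Markers of the cells that make matrix were read for the same pairs of lambs. Of 9 tested fibroblast markers, 7 were higher in the first callipyge lamb of 30 days (median gap 0.099) and 5 in the first normal lamb (0.027). Of 10 endothelial markers, 8 (median 0.47) and 7 (median 0.084) were higher. Their summed levels at 30 days ran from 11.76 to 11.98 for fibroblast and from 10.47 to 11.38 for endothelial markers. Of 9 muscle fibre markers, 4 and 2 were higher, with medians of -0.0016 and -0.32. What part these cell types had in the gaps was not tested.

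**Figure D5:**
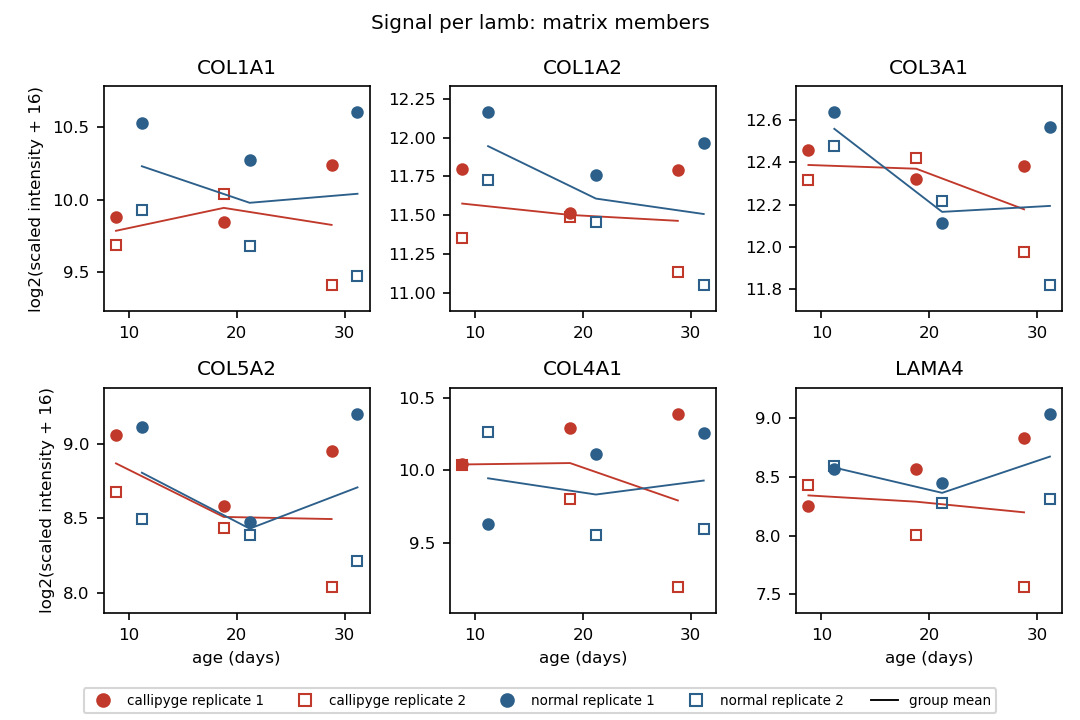
Log2(scaled intensity + 16) of 6 matrix genes in every lamb against age in days, callipyge in red and normal in blue, filled circles for replicate 1 and open squares for replicate 2, with lines through the group means and genotypes shifted sideways to keep points apart. At 30 days the filled circle lies above the open square in both genotypes for all 6 genes.

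Chains that assemble into the same molecule or fibril were compared across the 12 lambs in 9 pairs chosen after the data were seen. The p-values are from permutation tests with 100000 resamples, adjusted over the 9 pairs. These shuffled all 12 lambs without regard to genotype and age. Other pairs of members were not correlated, so whether partners follow each other more than other members do was not tested. COL1A1 and COL1A2 followed each other, with Pearson's r = 0.913 (permutation p = 3.0e-05, adjusted 0.00027) and Spearman's rho = 0.874 (permutation p = 0.00046, adjusted 0.00414). Without the 2 lambs farthest from the median of the first-named gene of a pair, here COL1A1, r was 0.864. COL3A1 and COL5A2, neighbours in the sheep assembly ARS-UI_Ramb_v3.0, gave r = 0.817 (permutation p = 0.00107, adjusted 0.00481) and rho = 0.804 (permutation p = 0.00254, adjusted 0.0114), and r = 0.714 without the 2 farthest lambs. LAMB1 and LAMC1 gave r = 0.714 (permutation p = 0.00698, adjusted 0.0209) and rho = 0.643 (permutation p = 0.0276, adjusted 0.0829), and r = 0.776 without the 2 farthest lambs. For deviations from the group means r was 0.958, 0.907 and 0.635 in these 3 pairs. The deviations of the 2 lambs of a group mirror each other. Each r of deviations, here and in the next paragraph, thus rests on 6 differences and not on 12 separate values.

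The other 6 pairs had adjusted permutation p-values above 0.10 for both coefficients. COL6A1 and COL6A2, which are chains of the same molecule and neighbours in that assembly, gave r = -0.209 (rho = -0.252). ITGA7 with ITGB1 gave r = 0.580 (rho = 0.294), ITGA5 with ITGB1 0.296 (rho = 0.343) and ITGA3 with ITGB1 -0.282 (rho = -0.224). LAMA4 with LAMC1 gave 0.364 (rho = 0.147) and LAMB2 with LAMC1 0.231 (rho = -0.196). Without the 2 farthest lambs LAMB2 with LAMC1 turned to -0.661, LAMA4 with LAMC1 to -0.168 and ITGA3 with ITGB1 to 0.181. For deviations from the group means r was -0.592 for COL6A1 with COL6A2, -0.761 for ITGA3 with ITGB1, 0.719 for ITGA7 with ITGB1, 0.534 for LAMA4 with LAMC1, 0.259 for ITGA5 with ITGB1 and 0.240 for LAMB2 with LAMC1. These values share the arrays and their scaling, and pairs of probe sets that are dim carry more noise.

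Genes that work with the members were read from lists. Of 21 tested genes of collagen biosynthesis and crosslinking, 0 were called for genotype with limma (median 0.019) and 0 between 10 and 30 days (median -0.037). SPARC, a collagen-binding protein, stood at -0.47 for genotype (limma adjusted p = 0.379). PPIB, a prolyl isomerase of collagen folding, stood at -0.40 between 10 and 30 days (limma adjusted p = 0.142), and SERPINH1, the collagen chaperone HSP47, at -0.48 (limma adjusted p = 0.341).

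Of 32 tested fibril and interstitial matrix partners, 1 was called for genotype and 24 lay below 0 (median -0.11). Of all probe sets 0.883% were called for genotype and 47.5% lay above 0. The called gene was KERA, keratocan, a small leucine-rich proteoglycan of fibrils, at -0.75 (limma adjusted p = 0.0487), a call lost in 17 of 21 other settings. For genotype the tested tendon markers FMOD and THBS4 stood at -0.34 and -0.27, neither called, with summed levels of 8.28 to 11.04 in callipyge and 9.75 to 10.87 in normal lambs, and their part in the KERA value was not tested. Between 10 and 30 days 1 of the 32 partners was called, where 1.83% of all probe sets were. It was THBS4, a thrombospondin of tendon and muscle matrix, at 1.15 (limma adjusted p = 0.0494), a call lost in 17 of 22 other settings. THBS4 is also 1 of the 2 tested tendon markers, and the other, FMOD, stood at 0.44. CCN2, a matricellular growth factor, stood at 0.80 between 10 and 30 days (limma adjusted p = 0.0640).

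Of 11 basement membrane and dystroglycan partners and 23 integrin adhesion genes 0 were called in either comparison, with genotype medians of -0.085 and -0.040. LIMS2, an adaptor of the integrin adhesion complex, stood at -0.52 for genotype (limma adjusted p = 0.0743), and VCL, vinculin, at 0.35 (limma adjusted p = 0.322). NID1, nidogen, which joins laminin to collagen IV, stood at 0.37 between 10 and 30 days (limma adjusted p = 0.262). Of 18 matrix turnover and 12 TGF-β signalling genes 0 were called in either comparison. TIMP3, an inhibitor of metalloproteinases, stood at 0.45 between 10 and 30 days and MSTN, myostatin, at 0.49 for genotype (limma adjusted p = 0.162 and 0.551).

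Marker lists of other cell types were read for the same contrasts. Of the 10 endothelial markers 9 lay below 0 for genotype (median -0.17) and 9 above 0 between 10 and 30 days (median 0.16), with 0 called by limma. Of all probe sets 47.5% lay above 0 for genotype and 50.4% between 10 and 30 days. The 9 fibroblast markers had medians of -0.16 and -0.058, and the 8 smooth muscle and pericyte markers of -0.035 and 0.10, with 0 called. The 2 adipocyte, 3 nerve and Schwann, and 3 erythroid markers tested had genotype medians of -0.30, -0.14 and -0.54 and 0 called. The lists' summed levels overlapped between genotypes, at 11.40 to 12.07 and 11.85 to 12.08 for fibroblast markers in callipyge and normal lambs. Their part in the members' values was not tested.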

How the data were processed

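Total RNA of 12 lambs was hybridised to Affymetrix bovine arrays, 1 array per lamb. The authors deposited 1 intensity for each probe set, and the submitters' processing notes name MAS5 and GCOS. Versions, target scaling and a genome build are not given in the sources used here, and no batch is given. Of 24128 probe sets, 112 controls were left out. Each array was scaled to a common trimmed mean (2% left out at each end), log2(value + 16) was taken, and the 12008 probe sets at or above the median level were fitted with limma 3.58.1 in R 4.3.3 (1 mean per group, trended eBayes), with Benjamini-Hochberg adjustment. The fit has 6 residual and 6.93 prior degrees of freedom. Intervals are 95% intervals of the moderated fit. Exact permutations are two-sided. Their p-values are unadjusted and were given for members picked by a small limma p in the same data, so they add no separate support. The labels call the lambs biological replicates, and 2 per group limit the precision.

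Of the 24016 probe sets, 13292 had 1 gene symbol, 86 several and 10638 none in the platform annotation, which can be old. The sheep gene table held 44 of the 45 symbols.

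The members and lists were chosen with earlier results of these data known. Described are called members, otherwise the 3 above and the 3 below 0 with the smallest p, the brightest 2 of each role, and up to 4 genes of each list. The labels do not say whether a replicate number is shared between groups. Of 15 correlations between groups of the lambs' deviations over all tested probe sets, 1 was above 0.1 (range -0.059 to 0.11). Whether a number marks something shared for the members alone was not tested. Alternatives covered the constant, filter, scaling, array weights, a replicate block, and arrays left out. The fit was tested on simulated data. Figures were drawn with matplotlib 3.10.9 under python 3.11.15.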

Additional observations from a re-analysis of the deposited data

Results flagged for a closer look

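In 6 of 150 sets of lambs checked (30 members in each age and genotype), 1 lamb stood far from the others of its set; chance alone gives about 1 in 20. ITGA7 read 8.16 in the second normal lamb of 10 days, the highest of the 4 lambs of that age, where the nearest read 7.88. ITGA5 read 6.73 in the first callipyge lamb of 20 days, where the nearest of 4 lambs read 6.19. COL26A1 read 6.44 in that same lamb, where the nearest of the 6 callipyge lambs read 5.87. COL3A1 read 11.97 in the second callipyge lamb of 30 days, below the other callipyge lambs, the nearest at 12.32. COL27A1 read 4.71 in that lamb too, below the others of 30 days, the nearest at 5.62. COL12A1 read 6.54 in the first normal lamb of 10 days, where the nearest of 4 lambs read 5.69.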

How the results depend on the processing

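With the replicate block 0 members were called in each of the 8 comparisons, as without it; the block gave 96 probe sets in place of 106 for genotype and 235 in place of 220 from 10 to 30 days. The count of members called for genotype was 1, ITGB1BP2, with the filter at the 75th percentile, with array weights and at an adjusted p of 0.10. Leaving out 1 array in turn gave 0 to 1 for genotype (ITGB1BP2 without the second callipyge lamb of 10 days, the first callipyge or the first normal lamb of 30 days) and 0 to 1 from 10 to 30 days (COL3A1 without the first normal lamb of 30 days). Over the settings that were run the counts of the other 6 comparisons stayed at 0. Over all probe sets, the 106 calls for genotype became 47 without a filter, 69 with median centring and 32 without both second lambs of 30 days, and 41 to 115 on leaving out 1 array. The 220 calls from 10 to 30 days became 87, 81 and 1 under the same settings, and 18 to 279 on leaving out 1 array. At single ages the settings gave 0 to 20, 1 to 9 and 1 to 13 calls in place of 8, 4 and 6, and in the other 3 comparisons at most 9. Of 968 recomputed values of the 45 results named by smallest p, 960 kept their direction and side, 5 moved past the threshold (all ITGB1BP2 for genotype) and 3 changed sign; the 3 interaction results have no direction and count by side only. Leaving out 1 array moved 25 of the other 42 by over 1.5 times. Of 607 values of the 28 other results of the brightest members, 1 moved past the threshold (COL3A1) and 80 changed sign. None of the results whose sign turned was called with the settings of the report, COL3A1 from 10 to 30 days was called on leaving out 1 array, and the cause was not tested except where an array was left out. The filter at the 75th percentile gave no value for members below it. KERA ranged from -1.06 to -0.40 and THBS4 from 0.75 to 1.54. No scaling moved the median of all probe sets to -0.19 for genotype and 0.24 from 10 to 30 days, and median centring to -0.053 and 0.083, so signs under these 2 settings are relative to these shifts.

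For genotype averaged over ages, sign changes with no scaling were COL4A1 -0.16, COL12A1 -0.10, COL3A1 -0.22, ITGA5 -0.048, LAMC1 -0.20, COL26A1 -0.060 and ITGB1BP1 -0.057. Median centring gave COL4A1 -0.026, COL3A1 -0.081 and LAMC1 -0.066, and quantile normalization LAMC1 -5.4e-05. Without both second lambs of 30 days COL15A1 was 0.0073, COL3A1 -0.052 and, for genotype at 30 days, COL5A3 -0.073. Leaving out 1 array gave ranges of -0.29 to 0.066 for COL15A1, -0.14 to 0.26 for COL4A1, -0.092 to 0.21 for COL12A1, -0.12 to 0.13 for COL3A1, -0.0065 to 0.29 for ITGA5, -0.076 to 0.027 for ITGB1, -0.065 to 0.10 for LAMC1, -0.22 to 0.063 for COL17A1, -0.0093 to 0.23 for COL26A1 and -0.0057 to 0.26 for ITGB1BP1. At single ages the ranges were -0.87 to 0.035 for COL12A1 at 10 days and -0.31 to 1.12 for COL5A3 at 30 days.

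From 10 to 30 days, sign changes with no scaling were COL4A1 0.17, COL6A1 0.084, COL6A2 0.16, COL3A1 0.015, COL1A2 0.028, ITGA7 0.069 and LAMC1 0.23. Median centring gave COL4A1 0.0052, COL6A2 0.00069 and LAMC1 0.067. Without both second lambs of 30 days COL4A1 was 0.33, COL6A1 0.038, COL21A1 0.10, COL3A1 0.0021, COL1A2 0.12, ITGA7 0.0052, LAMC1 0.026 and COL17A1 -0.078. Leaving out 1 array gave ranges of -0.26 to 0.27 for COL15A1, -0.43 to 0.17 for COL4A1, -0.16 to 0.10 for COL6A2, -0.69 to 0.0031 for COL21A1, -0.11 to 0.34 for COL12A1, -0.096 to 0.34 for ITGA5, -0.012 to 0.087 for ITGB1, -0.19 to 0.054 for LAMC1 and -0.18 to 0.24 for COL17A1.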
